A study of Mus musculus with 52 samples.

Results

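The promoters of 9 genes of the interferon response and of cytosolic RNA sensing were examined for chromatin accessibility in mouse embryonic stem cells (mESCs). They were found by matching the RefSeq identifier of each promoter interval to a gene symbol, and each of the 9 genes had 1 interval among 20633 promoters. Ddx60 was selected on its log2 fold change relative to other promoters in Kdm2b-CXXC cells, where it was lower after tamoxifen, and the other 8 genes were chosen by pathway. Its values in that line are therefore a description without a test, and only the other 3 lines give values for it that its choice did not use.

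Accessibility was measured by calibrated ATAC-seq, in which the Tn5 transposase inserts adapters into open DNA and Drosophila SG4 cells added to each sample serve as the reference for scaling. The 4 lines carry loxP sites in both alleles of their target genes and a tamoxifen-inducible CRE recombinase (CreERT2) expressed from the ROSA26 locus, controls included. In Kdm2a/b-JmjC cells tamoxifen deletes exons of Kdm2a and Kdm2b that encode the JmjC histone demethylase domain. This removes the long forms of KDM2A and KDM2B, whereas short forms, which hold the CpG island-binding ZF-CxxC domain, remain. Tamoxifen deletes the ZF-CxxC domain from all forms of both proteins in Kdm2a/b-CXXC cells, and that domain of only the named protein in Kdm2a-CXXC and Kdm2b-CXXC cells. Cells were left untreated or received 800 nM 4-hydroxytamoxifen for 96 h, giving 3 untreated and 3 tamoxifen libraries per line, or 4 and 4 in Kdm2a/b-CXXC, and 26 libraries in all. Each genotype was represented by 1 conditional line, Kdm2a/b-CXXC cells were made by editing Kdm2b-CXXC cells, and no line without loxP sites was treated with tamoxifen in these tables.

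Type I interferon responses begin when RNA helicases in the cytosol bind viral RNA and signal through the adaptor MAVS to the kinase TBK1 and the transcription factors IRF3 and IRF7. Secreted interferon then acts through receptor-bound JAK kinases to assemble the complex ISGF3, which holds STAT2 and IRF9 and binds interferon-stimulated response elements (ISREs) at the promoters of antiviral genes. Embryonic stem cells are known for a weak interferon response compared with differentiated cells, and rely more on other antiviral mechanisms.

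The promoter sequences placed the 9 genes in different classes of promoter. The core of the ISRE, written GAAANNGAAA and searched on both strands, occurred in 6 of the 9 intervals, against 745 of 20630 promoters with sequence (3.61%). The sequences around these matches are shown because they are what the 6 promoters have in common beyond their names. They are read 5′ to 3′ on the gene's strand from the GRCm38.p6 reference, the assembly known as mm10, with the matched bases in capitals. Where matches overlap, as in Isg15, the capitals cover them all, and a match in capitals that reads TTTC at either end lies on the other strand.

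Ddx60, chr8:61928004-61928086, + strand: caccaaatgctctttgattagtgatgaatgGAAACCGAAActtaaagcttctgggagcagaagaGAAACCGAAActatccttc
Isg15, chr4:156200845-156200926, - strand: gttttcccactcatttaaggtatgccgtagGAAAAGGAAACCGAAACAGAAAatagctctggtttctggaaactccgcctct
Ifit1, chr19:34640755-34640843, + strand: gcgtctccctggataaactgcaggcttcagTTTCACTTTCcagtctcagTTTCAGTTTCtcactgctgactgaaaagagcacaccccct
Ddx58, chr4:40239804-40239833, - strand: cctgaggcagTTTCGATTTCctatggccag
Ifih1, chr2:62646204-62646233, - strand: gaagagaatcGAAACAGAAAccgatctgtg
Dhx58, chr11:100704256-100704285, - strand: cctccccttgTTTCAGTTTCatttctagag

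Ddx60 held 2 matches with the same 10 letters, beginning 53 and 19 bases upstream of the annotated start site. Isg15 held 3 overlapping matches between 78 and 57 bases upstream, and Ifit1 held 2, beginning 104 and 85 bases upstream. In Ddx58 and Ifih1 the match began within the transcribed sequence, at its base 3 and base 33, and in Dhx58 it spanned the start site. Stat2, Irf9 and Irf7 had no match in the interval, which says only that these letters are not in the 400 bases examined. The STAT dimer motif GAS, written TTCNNNGAA and the same on both strands, was found in Irf9 alone among the 9 genes, against 8.97% of all promoters. Promoters were counted as CpG-rich when GC content reached 50% and the ratio of observed to expected CpGs reached 0.6. Among these the ISRE core was present in 2.43%, and among the other promoters in 5.03%.

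**Figure D1:**
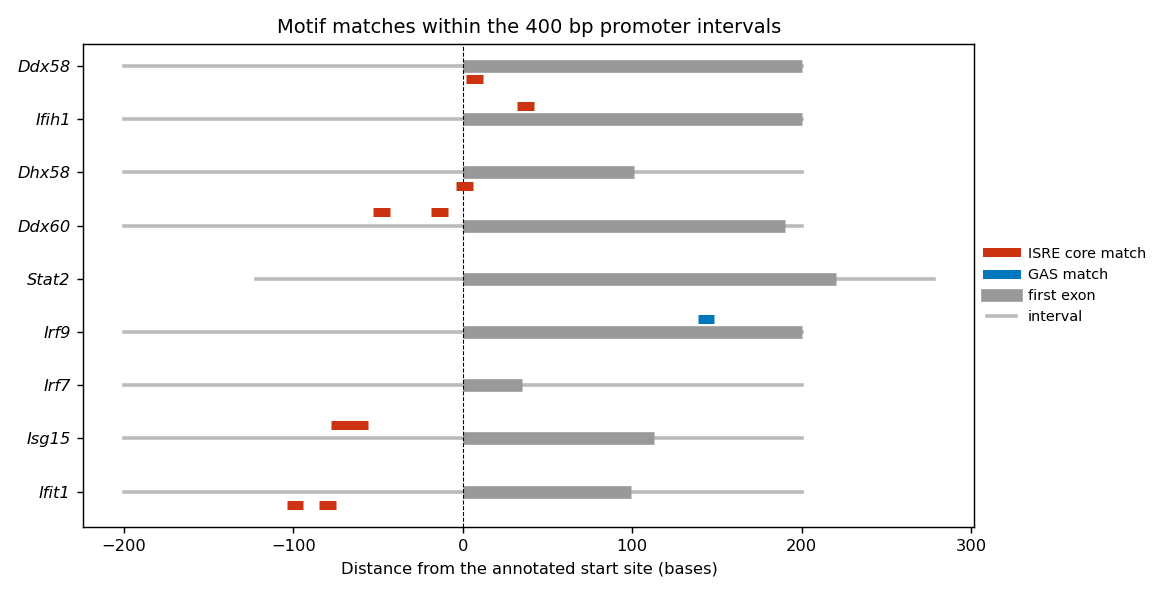
Positions of motif matches in the 400 bp promoter intervals of the 9 genes, in bases from the annotated start site (dashed line), with upstream to the left. Red bars mark ISRE core matches and the blue bar the GAS match, drawn above the interval when on the gene's strand and below it when on the other; thick grey is the first exon. The matches of Ddx60, Isg15 and Ifit1 lie upstream of the start site, and those of Ddx58, Ifih1 and Dhx58 at or after it.

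Only Ddx58, Ifih1 and Stat2 had CpG-rich promoters, whereas 54.6% of all promoters did. The Ddx60 promoter (NM_001293783, chr8:61927887-61928286) had a GC content of 50.25%, 15 CpGs and a ratio of observed to expected CpGs of 0.598, just short of the definition. Its interval covered 200 bases upstream of the start site, the first exon of 190 bases and 10 bases of the first intron. Stat2 (NM_019963, chr10:128270376-128270775) was the most CpG-dense, with 36 CpGs and a ratio of 0.891. At the other end, Dhx58 (NM_030150, chr11:100704072-100704471) and Ifit1 (NM_008331, chr19:34640689-34641088) each held 3 CpGs, with ratios of 0.12 and 0.119. The remaining intervals were Ddx58 at chr4:40239626-40240025 (NM_172689), Ifih1 at chr2:62646056-62646455 (NM_001164477), Irf9 at chr14:55603785-55604184 (NM_001159417), Irf7 at chr7:141266225-141266624 (NM_001252600) and Isg15 at chr4:156200619-156201018 (NM_015783). All of them reached 200 bases upstream of the start site, except that Stat2 reached 122 bases. The intervals of Ddx58, Ifih1 and Irf9 ended within the first exon and held 71, 0 and 52 coding bases. In Dhx58, Stat2, Irf7, Isg15 and Ifit1 the interval ran from the first exon into the first intron. The Ifit1 interval shared 255 bases with the promoter interval of Ifit1bl2, a neighbour in the same cluster, so most reads over Ifit1 cannot be assigned to either gene. The closest other promoter interval lay 2.065 kb away for Isg15 and between 7.796 kb and 29.35 kb away for the other 7 genes.

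Libraries held 1.49 to 3.03 M reads over promoters, where M is 1000000, and the median promoter held 58 to 108 of them. Promoters of 5 of 8 pluripotency genes ranked above the library median on average, led by Zfp42, while 0 of 6 fibroblast, 0 of 6 blood and 1 of 4 primitive endoderm marker promoters did. The sum over the 8 pluripotency promoters was 462 to 713 reads per M promoter reads across libraries, against 55.7 to 95.4 for the fibroblast list, 23.2 to 51.6 for the blood list and 85.7 to 149 for the primitive endoderm list. Values below are calibrated reads per 400 bp promoter, that is mouse reads divided by the authors' spike-in factor for the library. Every promoter interval has the same length, so levels were compared between genes without a correction for length. They were also not corrected for sequence bias of Tn5, for which the authors tagmented genomic DNA that was not analysed here. Each line's table was calibrated separately, so tamoxifen was compared with no treatment within a line.

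In untreated and treated cells alike, the promoters of Stat2 and Irf9 were open, and those of the sensors and effectors ranged from intermediate to nearly closed. Irf9, the DNA-binding subunit of ISGF3, ranked between the 75.8 and 92.4 percentile of promoters in the 26 libraries, and Stat2, its signalling partner, between the 73.9 and 92.8 percentile. Ddx60, an interferon-inducible helicase, ranked between the 32.3 and 61.0 percentile, Ifih1 between 30.5 and 50.7, and Ddx58 between 27.9 and 46.8. Irf7, the regulator that drives interferon gene transcription, stood at a median percentile of 31.2, Dhx58 at 24.9, Ifit1 at 22.2 and Isg15 at 15.9. Isg15, the ubiquitin-like modifier that is among the most strongly interferon-induced genes, had between 6 and 27 reads per library, so that its counting error was wide. In untreated cells the order of mean calibrated reads was Irf9, then Stat2, in each line, with overlapping libraries, and a gap without overlap separated both from the third gene in every line. Ranges of most genes below the third place overlapped those of their neighbours in the order. The exceptions were Ddx60 over Ddx58 in Kdm2a/b-JmjC and Kdm2b-CXXC, Ifih1 over Irf7 in Kdm2b-CXXC, and, in Kdm2a-CXXC, Ddx60 over Irf7 and Irf7 over Dhx58.

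**Figure D2:**
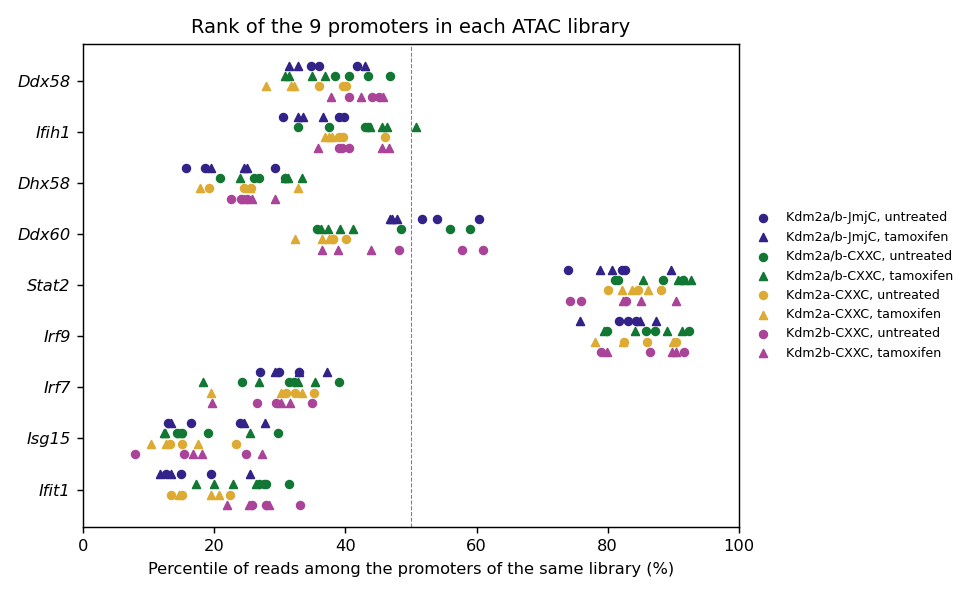
Percentile of reads at the 9 promoters among all promoters of the same library, with a row of points for each of the 4 lines (colours), circles for untreated and triangles for tamoxifen libraries. Stat2 and Irf9 lie above the library median in all 26 libraries, and Dhx58, Irf7, Isg15 and Ifit1 lie below it, the dashed line, in all of them.

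Levels also differed between untreated lines, most visibly at Ddx60. In reads per M promoter reads, it stood at 19.9 ± 1.43 in Kdm2a-CXXC (SD, n = 3), against 48.2 ± 9.93 in Kdm2b-CXXC (SD, n = 3), 46.1 ± 6.58 in Kdm2a/b-JmjC (SD, n = 3) and 40.2 ± 14.4 in Kdm2a/b-CXXC (SD, n = 4). The Kdm2a-CXXC level was 0.85 below the mean of the 4 lines on the log2 scale, where the median of 849 chromosome 8 promoters was 0.19 below. In Kdm2a/b-JmjC, Ddx60 was 0.33 above that mean and the chromosome 8 median 0.26 above. These are levels of separately prepared lines and were not tested.

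The question put to each line was whether loss of the KDM2 domain altered accessibility at these promoters. No promoter of the 9 passed both thresholds on the calibrated scale, a Benjamini-Hochberg adjusted p under 0.05 by limma and a fold change over 1.4, with Ddx60 in Kdm2b-CXXC left without a test. The same count of 0 was obtained with edgeR on recovered reads and the authors' spike-in factors. DESeq2 on the same reads and factors also gave 0, with a promoter lacking an adjusted p counted as not passing. In Kdm2a/b-JmjC the genes to which it gave no adjusted p included Ddx58, Ifih1, Dhx58, Ddx60, Stat2 and Irf9. It could not call such genes there, so its 0 in that line is not a second test of them. The log2 fold changes of Ddx60 and Ddx58 lay below 0 in all 4 lines, as for 8.7% of promoters tested in all of them, and also with TMM scaling, a scale relative to other promoters described below, as for 9.86%. The value of Ddx58 in Kdm2b-CXXC was near 0, and that of Ddx60 there is what its choice used. Most of the intervals were wide, so that changes of 1.4-fold in either direction could not be told from none at the promoters with few reads. In Kdm2b-CXXC this held on the calibrated scale for all 8 genes tested, whose narrowest 95% interval was 1.44 wide in log2 units. Stat2 and Irf9, with many reads, each had an SE of 0.37 there, against 0.11 with TMM scaling. The count of 0 in that line therefore says little about any of these genes.

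**Figure D3:**
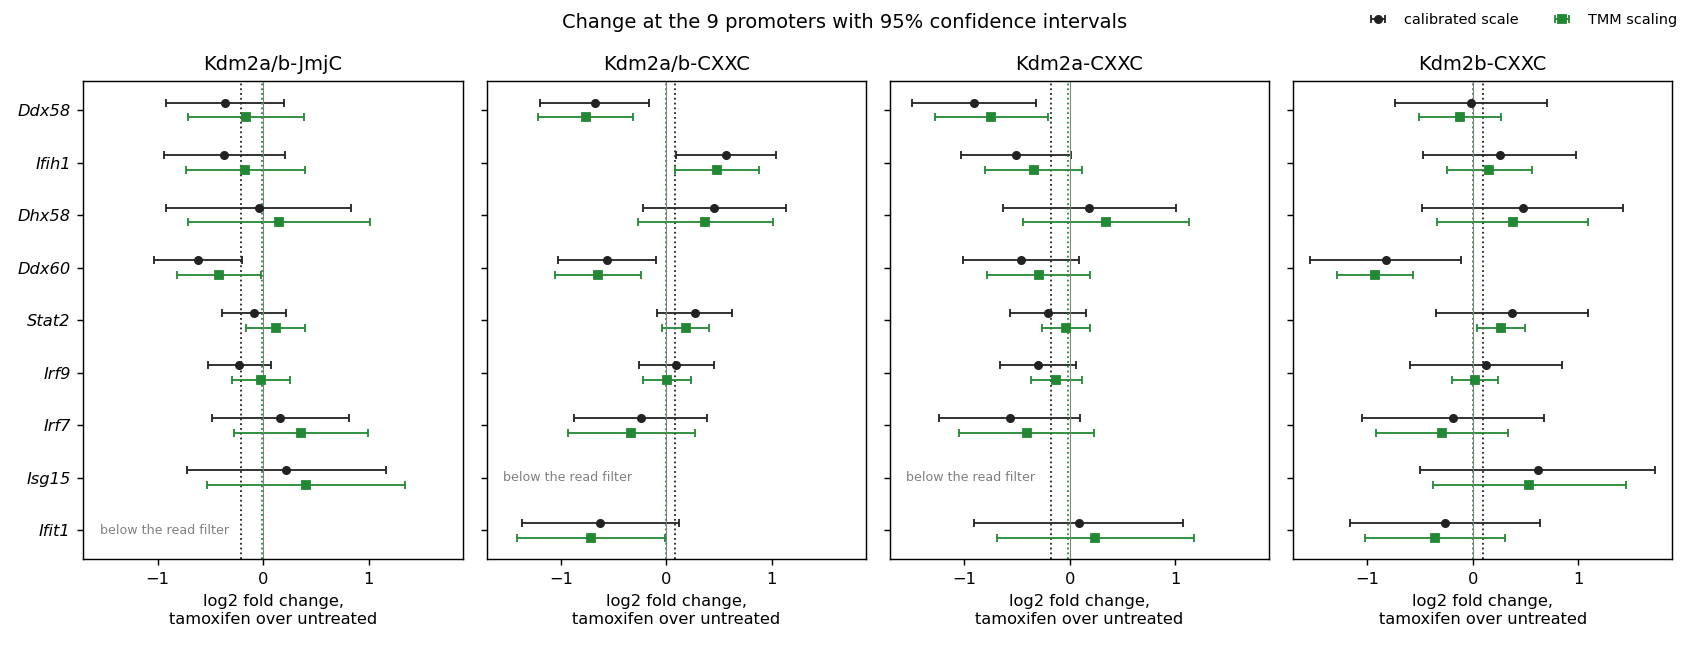
Log2 fold change of tamoxifen over untreated libraries at each of the 9 promoters in the 4 lines, with 95% confidence intervals from limma, as calibrated reads (black circles) and with TMM scaling (green squares); dotted lines are the medians over all promoters tested on each scale. Ddx60 lies left of 0 in all 4 panels on both scales, the Kdm2b-CXXC panel being the one through which it was picked, and most intervals of the other genes reach 0.

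The cytosolic sensors were considered first. Ddx58 encodes RIG-I, which recognises short double-stranded and uncapped viral RNA. In Kdm2a-CXXC cells its untreated libraries held 35.3, 50.3 and 52.7 calibrated reads and its tamoxifen libraries 22.7, 19.4 and 30.5. The groups did not overlap, as in 13.4% of the 17727 promoters tested in that line. The log2 fold change was -0.91 (SE 0.30, 95% interval -1.496 to -0.32), with an unadjusted p of 0.00251 by limma and an adjusted p of 0.581. It was called, at an adjusted p of 0.0469 by limma, when the replicate number was added as a block, in a fit that called 1.06% of promoters. Whether the numbers pair the libraries is not known.

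In Kdm2a/b-CXXC cells, untreated libraries held 53.3, 38.9, 48.7 and 39.7 calibrated reads at Ddx58 and tamoxifen libraries 39.4, 22.9, 33.3 and 19.3. Tamoxifen replicate 1 lay just above the lowest untreated library, and the log2 fold change was -0.68 (SE 0.26, limma, adjusted p = 0.996). With TMM scaling, which sets the libraries of a line to a common typical promoter and so measures each promoter relative to the others, the groups did not overlap at Ddx58, which was the case for 2.5% of promoters. The log2 fold change was then -0.76 (SE 0.23), with an adjusted p of 0.151 by limma.

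Kdm2a/b-JmjC libraries gave 49.7, 37.2 and 33.0 calibrated reads at Ddx58 before and 25.6, 24.3 and 45.0 after tamoxifen, with a log2 fold change of -0.36 (SE 0.28). In Kdm2b-CXXC they were 77.2, 55.2 and 70.2 before and 90.5, 44.4 and 71.8 after, and the log2 fold change was -0.02 (SE 0.37, 95% interval -0.74 to 0.70). In Kdm2a/b-JmjC tamoxifen replicates 1 and 2 lay below every untreated library and replicate 3 within their range. In Kdm2b-CXXC 1 tamoxifen library lay above, 1 within and 1 below the untreated range, and the sign of this near-zero value was the opposite with edgeR (0.025) and DESeq2 (0.025).

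Ifih1 encodes MDA5, the sensor of long double-stranded RNA, and its values went in different directions in different lines. In Kdm2a/b-CXXC cells untreated libraries held 46.4, 36.9, 47.8 and 24.2 calibrated reads and tamoxifen libraries 83.3, 56.0, 51.8 and 40.9. All but tamoxifen replicate 4 lay above every untreated library, and the log2 fold change was 0.57 (SE 0.24, unadjusted p = 0.0186, adjusted p = 0.996 by limma). In Kdm2a-CXXC cells they were 63.1, 46.4 and 52.7 without and 31.4, 38.7 and 43.1 with tamoxifen. These groups did not overlap, as in 13.4% of promoters of that line, and the log2 fold change was -0.51 (SE 0.27, adjusted p = 0.596 by limma).

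For Ifih1 the log2 fold change was -0.37 (SE 0.29) in Kdm2a/b-JmjC, where untreated libraries ran from 24.8 to 47.1 and tamoxifen libraries from 24.3 to 36.3. It was 0.26 (SE 0.37) in Kdm2b-CXXC, with 43.2 to 77.2 against 62.7 to 74.3 calibrated reads. A test of the difference between the 4 lines, as the interaction of treatment and line in 1 limma fit over 26 libraries, gave an unadjusted p of 0.0209 and an adjusted p of 0.953 for Ifih1. With TMM scaling the unadjusted p was 0.0572 and the adjusted p 0.793. At an unadjusted p under 0.05, 3.62% of 16030 promoters differed between lines on the calibrated scale, and 0 had an adjusted p under 0.05 by limma. No difference between lines was therefore shown at Ifih1 after correction, and the smallest adjusted p among the 6 genes of this fit was 0.953 on the calibrated scale. This fit was chosen after the data were seen, and edgeR and DESeq2 were not run for it.

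Dhx58 encodes LGP2, a relative of both sensors that lacks their signalling domains and modulates them. Its promoter held 9 to 28 reads per library. The highest log2 fold change was 0.47 (SE 0.49) in Kdm2b-CXXC cells, where untreated libraries held 19.6, 12.7 and 16.7 calibrated reads and tamoxifen libraries 26.5, 22.7 and 19.6. With TMM scaling all 3 tamoxifen libraries lay above the 3 untreated ones, as in 5.9% of promoters of that line, and the log2 fold change was 0.38 (SE 0.36, adjusted p = 0.863 by limma). It was 0.46 (SE 0.35) in Kdm2a/b-CXXC and 0.19 (SE 0.42) in Kdm2a-CXXC. In Kdm2a/b-JmjC it was -0.04 (SE 0.45) in calibrated reads but 0.15 with TMM scaling, a change of sign well inside the error.

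Ddx60 encodes a large helicase that has been described as a cofactor of RIG-I-like sensing. In Kdm2b-CXXC cells, through which it was picked, untreated libraries held 109.5, 89.9 and 118.5 calibrated reads and tamoxifen libraries 65.5, 47.3 and 66.1. Each tamoxifen library was lower than each untreated one, as in 0.446% of promoters, with a fold of 0.564 and a log2 fold change of -0.83 on the calibrated scale. With TMM scaling the libraries held 88.5, 122.8 and 133.5 reads without and 48.5, 57.1 and 74.2 with tamoxifen, and the log2 fold change was -0.93, again without overlap (6.53% of promoters). It was the 1 promoter of 17930 (0.00558%) past both thresholds on that scale in this line, which is what its choice rests on, and Zfp572, a zinc finger gene at -0.79, stood next in the order of p just outside.

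In Kdm2a/b-JmjC cells, which played no part in that choice, untreated libraries held 79.0, 78.0 and 96.2 calibrated reads at Ddx60 and tamoxifen libraries 57.7, 52.5 and 53.2. The groups did not overlap, as in 23.2% of promoters of that line. This gave a log2 fold change of -0.62 (SE 0.21, 95% interval -1.03 to -0.20), with an unadjusted p of 0.00365 and an adjusted p of 0.102 by limma. The typical promoter lay lower too on this scale, with a median of -0.21 over all promoters, and with TMM scaling Ddx60 was at -0.42 (SE 0.20, unadjusted p = 0.0411, adjusted p = 0.881 by limma), still without overlap (5.71% of promoters).

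In Kdm2a/b-CXXC cells untreated libraries held 78.0, 60.8, 75.9 and 30.01 calibrated reads at Ddx60 and tamoxifen libraries 42.8, 45.8, 34.2 and 32.9. Of the untreated libraries 3 lay above every tamoxifen library and replicate 4 below every one. The log2 fold change was -0.56 (SE 0.24, unadjusted p = 0.0188, adjusted p = 0.996 by limma) and with TMM scaling -0.65 (SE 0.20, unadjusted p = 0.00194, adjusted p = 0.185). Without untreated replicate 4 it was -0.93 with TMM scaling, and passed both thresholds at an adjusted p of 0.0237 by limma, in a fit that called 0.0532% of promoters.

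In Kdm2a-CXXC cells, where Ddx60 started from its lowest level, untreated libraries held 45.9, 44.2 and 47.6 calibrated reads and tamoxifen libraries 23.5, 37.7 and 40.6. The groups did not overlap, as in 13.4% of promoters of that line. The log2 fold change of -0.46 (SE 0.28) had an interval from -1.01 to 0.09 and an adjusted p of 0.615 by limma. With 1 library left out it ran from -0.60 to -0.22. Against a median of -0.18 over all promoters, the value with TMM scaling was -0.29 (SE 0.25).

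**Figure D4:**
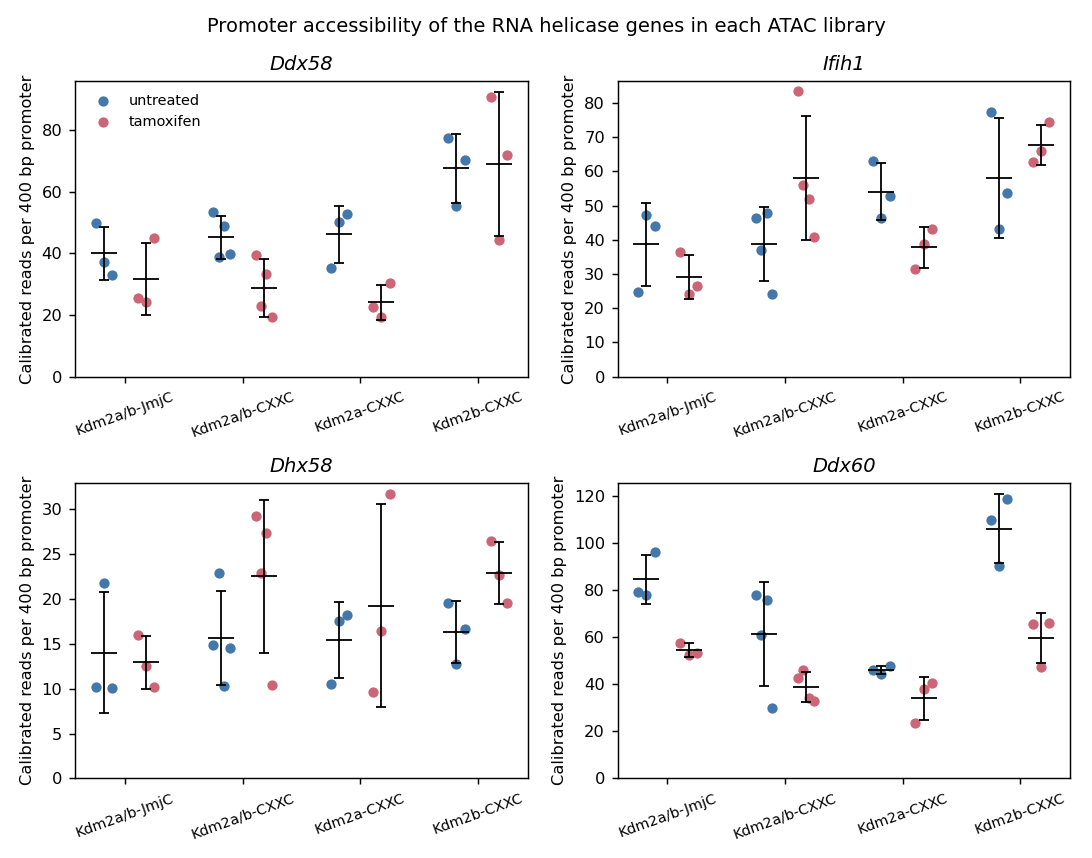
Calibrated reads at the promoters of Ddx58, Ifih1, Dhx58 and Ddx60 in each of the 26 libraries (points), with the mean and SD of each group in black. At Ddx60 the tamoxifen libraries lie below the untreated libraries in Kdm2a/b-JmjC, as in 23.2% of promoters, and in Kdm2a-CXXC, as in 13.4%. They also do so in Kdm2b-CXXC, the line through which it was picked. In Kdm2a/b-CXXC they lie below all untreated libraries but replicate 4. At Ifih1 the direction differs between lines.

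The 3 lines not used to pick Ddx60 were also fitted together, with the line as a term, over 20 libraries, a choice made after the data were seen. The common log2 fold change of Ddx60 was -0.55 (SE 0.15, 95% interval -0.84 to -0.26), and its unadjusted p of 0.00019 became 0.204 after adjustment over 16053 promoters by limma. That of Ddx58 was -0.65 (SE 0.17, 95% interval -0.98 to -0.32), with an unadjusted p of 0.000107 and an adjusted p of 0.172 by limma. They took places 15 and 10 in the order of p, and neither passed in a fit that called 3 promoters (0.0187%). With TMM scaling the values were -0.47 (adjusted p = 0.12 by limma) and -0.58 (adjusted p = 0.0989 by limma), where 0.0436% of promoters were called. On the calibrated scale both passed when Kdm2a/b-CXXC tamoxifen replicate 1 was left out, at adjusted p-values of 0.028 and 0.0168 by limma, in a fit that then called 55 promoters. Of the promoters tested in the 3 lines, 22.7% were below 0 in all 3 in calibrated reads and 16% with TMM scaling, as Ddx60 and Ddx58 were on both.

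The promoters around Ddx60 were examined in the same way. Within 1000 kb on either side lay 10 other promoter intervals, 9 of them upstream of Ddx60. Of these, 7 were tested in each of 3 lines and 8 in Kdm2b-CXXC, all upstream. With TMM scaling their median log2 fold change lay between -0.01 and 0.04 in each line, and the median over chromosome 8 lay between -0.03 and 0.04. The nearest tested interval was a Palld promoter, of a gene for an actin-associated protein. It was at -0.66 in Kdm2b-CXXC, the lowest neighbour in that line, and at -0.23, again the lowest, in Kdm2a/b-CXXC, but at 0.19 in Kdm2a/b-JmjC and 0.02 in Kdm2a-CXXC. The highest neighbour was 1700001D01Rik at 0.75 in Kdm2b-CXXC.

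The promoters whose library-to-library pattern was most like that of Ddx60 were Ssbp2, Rest and Gprc5b. Their Pearson correlations with Ddx60 were 0.73, 0.72 and 0.70 over 26 libraries, from log2 TMM-scaled values with the mean of each line removed. Among 16030 promoters Ddx58 was 593 in that order with 0.44, Ifih1 stood at 0.14 and Stat2 at -0.42. These values describe libraries that share treatments and include those through which Ddx60 was picked.

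Among the transcriptional regulators, Stat2 held 162.6, 171.3 and 133.8 calibrated reads without and 139.9, 163.6 and 136.1 with tamoxifen in Kdm2a/b-JmjC, with a log2 fold change of -0.09 (SE 0.15). In Kdm2b-CXXC it held 224.8, 138.1 and 193.1 without and 355.1, 180.4 and 202.5 with tamoxifen, where tamoxifen replicate 1 stood far above the others. That library was also high over all promoters, with a sum of 3.19 M calibrated reads against 1.98 and 2.11 M in tamoxifen replicates 2 and 3. In reads per M promoter reads Stat2 stood at 111.2 in it, against 91.0 and 96.1. With TMM scaling all 3 tamoxifen libraries of that line lay above all untreated ones, as in 5.9% of promoters. At an unadjusted p under 0.05 by limma 3.42% of promoters were higher. The log2 fold change of Stat2 was 0.27 (SE 0.11, unadjusted p = 0.0214, adjusted p = 0.564 by limma). The value was 0.27 (SE 0.18) in Kdm2a/b-CXXC and -0.21 (SE 0.18) in Kdm2a-CXXC on the calibrated scale.

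Irf9 had the narrowest interval in Kdm2a/b-JmjC, -0.22 (SE 0.15, 95% interval -0.52 to 0.07), close to the median of all promoters. In Kdm2a-CXXC its untreated libraries held 247.4, 233.0 and 230.0 calibrated reads and its tamoxifen libraries 202.2, 166.4 and 211.9. They did not overlap, as in 13.4% of promoters of that line, and the log2 fold change was -0.30 (SE 0.18, adjusted p = 0.615 by limma). With TMM scaling the groups overlapped and the value was -0.13 (SE 0.12). It was 0.09 (SE 0.18) in Kdm2a/b-CXXC and 0.12 (SE 0.37) in Kdm2b-CXXC, and with TMM scaling 0.01 (SE 0.11) and 0.02 (SE 0.11).

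Irf7 varied more between replicates. In Kdm2a-CXXC its untreated libraries held 26.8, 26.6 and 39.5 calibrated reads and its tamoxifen libraries 10.5, 29.0 and 26.7, so that the log2 fold change of -0.57 (SE 0.34) came largely from tamoxifen replicate 1, without which it was -0.13. In Kdm2b-CXXC they were 34.6, 32.6 and 19.3 without and 46.0, 10.8 and 28.6 with tamoxifen (-0.19, SE 0.44). The values in Kdm2a/b-JmjC and Kdm2a/b-CXXC were 0.16 (SE 0.33) and -0.24 (SE 0.32), with overlapping libraries.

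The effectors Isg15 and Ifit1, an RNA-binding protein that blocks translation of foreign RNA, had the fewest reads. Isg15 did not reach the read filter in Kdm2a/b-CXXC or Kdm2a-CXXC, nor Ifit1 in Kdm2a/b-JmjC, so that all 9 genes passed it in Kdm2b-CXXC and 8 in each of the other lines. Isg15 held 4.25 to 23.1 calibrated reads across the 26 libraries. Its log2 fold change was 0.22 (SE 0.48) in Kdm2a/b-JmjC and 0.61 (SE 0.57) in Kdm2b-CXXC, where untreated libraries held 23.1, 4.25 and 8.78 reads and tamoxifen libraries 16.7, 9.86 and 22.04. With 1 library left out the value in Kdm2b-CXXC ran from 0.10 to 1.20.

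Ifit1 held 16.8, 23.9, 17.8 and 14.5 calibrated reads without and 10.1, 15.3, 10.8 and 9.63 with tamoxifen in Kdm2a/b-CXXC cells, with 1 tamoxifen library above the lowest untreated one. The log2 fold change was -0.63 (SE 0.38), and with TMM scaling the groups did not overlap, as in 2.5% of promoters (-0.71, SE 0.35, unadjusted p = 0.047, adjusted p = 0.507 by limma). It was 0.08 (SE 0.51) in Kdm2a-CXXC and -0.26 (SE 0.46) in Kdm2b-CXXC, where untreated replicate 1 at 47.3 stood above the other libraries. In untreated cells Ifit1 was at 12.0 ± 2.29 reads per M promoter reads in Kdm2a/b-CXXC and 11.6 ± 3.88 in Kdm2b-CXXC, from which that line was made, against 5.10 ± 1.58 in Kdm2a/b-JmjC and 4.78 ± 1.50 in Kdm2a-CXXC (SD, n = 4, 3, 3 and 3).

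**Figure D5:**
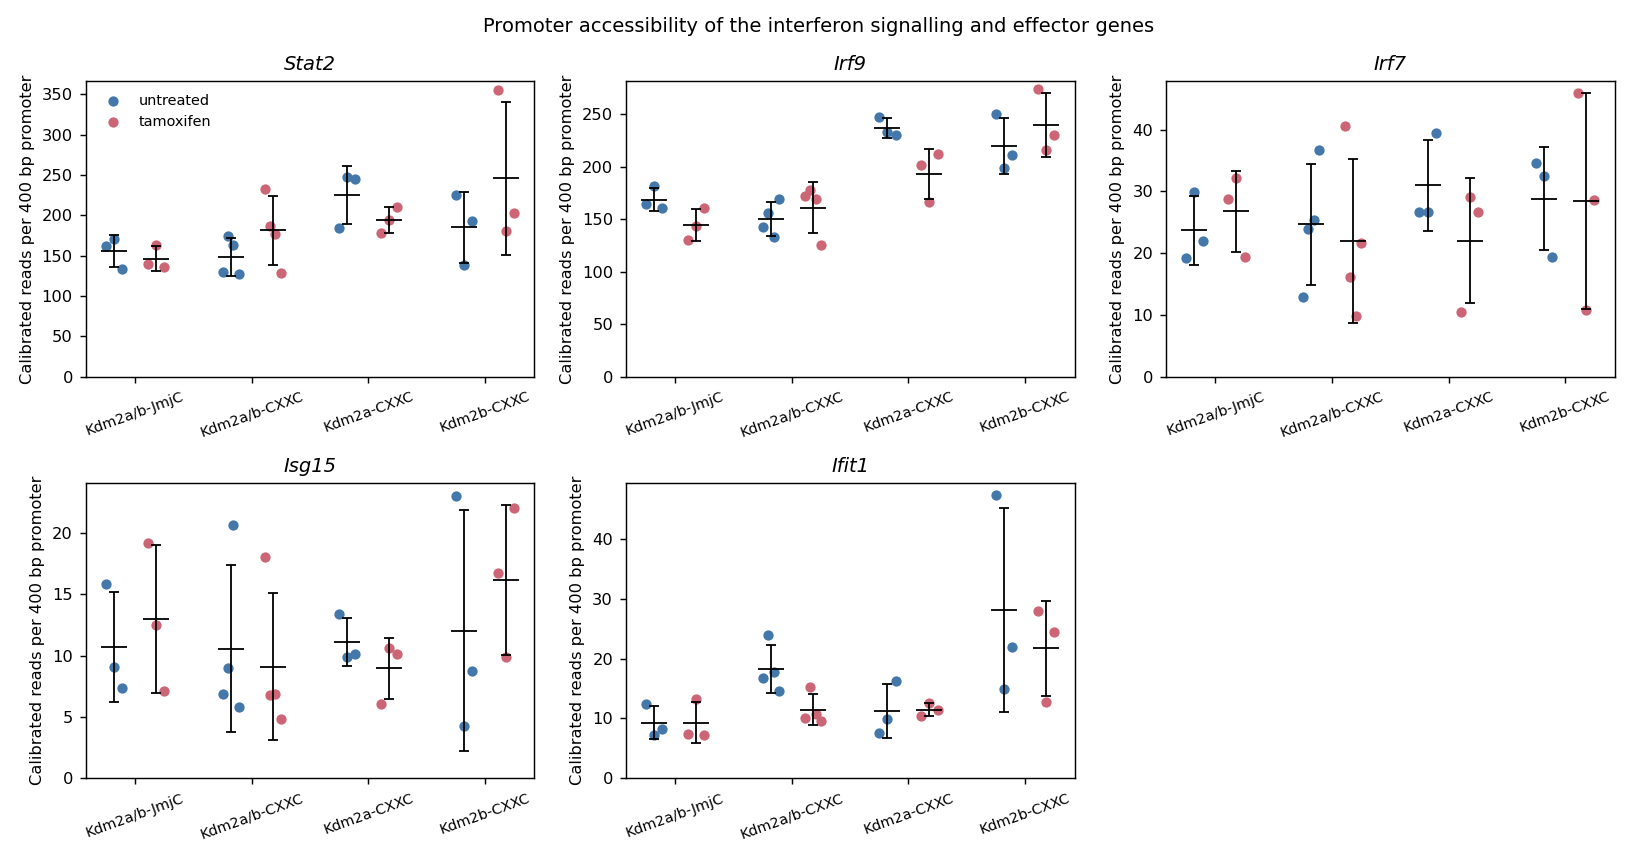
Calibrated reads at the promoters of Stat2, Irf9, Irf7, Isg15 and Ifit1 in each of the 26 libraries (points), with the mean and SD of each group in black. Stat2 and Irf9 lie at 125.2 reads or more throughout, while Isg15 reaches 23.1 at most, and treated and untreated points overlap in most groups.

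The 9 genes were also counted as a list in each line. In Kdm2a/b-JmjC 0 of 8 genes were called, against 0.0757% of 17174 promoters, and 1, Ddx60, had an unadjusted p under 0.05 by limma and lay lower, against 20.3%. Their median log2 fold change was -0.16, with -0.21 over all promoters, and with TMM scaling 0.05 and -0.01. In Kdm2a/b-CXXC 0 of 8 were called, against 0% of 16413 promoters. There Ddx58 and Ddx60 were lower at an unadjusted p under 0.05 by limma, against 1.07%, and Ifih1 higher, against 3.58%. The median was -0.08, with 0.09 over all promoters, and with TMM scaling -0.16 and 0.0007. On that scale Ddx58, Ddx60 and Ifit1 were lower at an unadjusted p under 0.05 by limma, against 4.97% of promoters, and Ifih1 higher, against 4.67%. With 1 library left out the median in calibrated reads ran from -0.26 to 0.06, above 0 without untreated replicate 4 or tamoxifen replicate 3.

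In Kdm2a-CXXC 0 of 8 were called, against 0%, and Ddx58 alone was lower at an unadjusted p under 0.05 by limma, against 8%. Ddx58, Ifih1, Ddx60 and Irf9 had groups that did not overlap, with tamoxifen lower, against 13.4% of promoters, and the median was -0.38, with -0.18 over all promoters. With TMM scaling it was -0.21, with -0.01 over all, 3 genes did not overlap, against 6.24% of promoters, and Ddx58 alone was lower at an unadjusted p under 0.05 by limma, against 3.51%. In Kdm2b-CXXC, without Ddx60, 0 of 8 were called, against 0% of 17930 promoters, 0 had an unadjusted p under 0.05 by limma (0.151% of promoters lower and 0.519% higher), and 5 values lay above 0 and 3 below. The median was 0.19, with 0.10 over all promoters, and with TMM scaling 0.09 and -0.003. A median taken over 8 genes, of which several have few reads, carries a wide error that was not estimated.

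Further genes of the pathway, listed by role and not by how they moved, gave 72 promoter intervals for 68 of 76 genes, of which 63 to 67 were tested per line. By limma 0 passed both thresholds in any line. With TMM scaling 0 passed as well, where 0.104% of all promoters did in Kdm2a/b-CXXC and 0% in both Kdm2a-CXXC and Kdm2a/b-JmjC. By edgeR and DESeq2 0 passed too, where a promoter to which DESeq2 gave no adjusted p counted as not passing. In Kdm2a/b-JmjC 16 of 65 had an unadjusted p under 0.05 by limma and lay lower, against 20.3% of all promoters, and 0 lay higher, against 0.262%, with a median of -0.23. Of these, 9 were among the 16 promoters of the interferon ligand, its receptors and the JAK-STAT and IRF factors, whose median was -0.37, or -0.17 with TMM scaling, against -0.21 and -0.01 over all promoters. With TMM scaling 4 of the 16 had an unadjusted p under 0.05 by limma, all lower, against 3% of all promoters. The 29 tested effectors had a median of -0.10, or 0.10 with TMM scaling, above that of all promoters, and 3 of them were lower at that p in calibrated reads. Of the 9 tested in RIG-I-like receptor signalling 3 were lower, and of the 11 other nucleic acid sensors and handlers 1, with medians of -0.30 and -0.23. Among pathway promoters above 0 in that line the smallest p was at Ifitm1, a membrane protein that restricts viral entry, with 0.53 (SE 0.42). Without tamoxifen replicate 1, 5 pathway promoters passed both thresholds in Kdm2a/b-JmjC, all lower, where the same fit called 3.39% of 17920 promoters.

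In Kdm2a/b-CXXC 3 of 63 pathway promoters were lower and 2 higher at an unadjusted p under 0.05 by limma, against 1.07% and 3.58% of all promoters, with a median of 0.03. Zbp1, a sensor of left-handed nucleic acid, stood at 23.8 ± 3.17 without and 13 ± 7.09 with tamoxifen (SD, n = 4 in each group). Zbp1 thus differed by a log2 fold change of -1.04 (SE 0.36, adjusted p = 0.863 by limma). Pml, the scaffold of PML nuclear bodies, stood at 76.0 ± 16.2 and 112 ± 20.8, with a difference of 0.56 on the log2 scale (SE 0.20, adjusted p = 0.991 by limma).

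In Kdm2a-CXXC 4 of 65 were lower and 1 higher at an unadjusted p under 0.05 by limma, against 8% and 0.395% of all promoters, with a median of -0.18. Parp14, an interferon-induced ADP-ribosyltransferase, stood at 36.0 ± 10.6 without and 15.3 ± 3.86 with tamoxifen (SD, n = 3 in each group). That is a log2 fold change of -1.17 (SE 0.35, adjusted p = 0.579 by limma). Oasl2, an antiviral protein of the oligoadenylate synthetase family, stood at 7.38 ± 0.881 and 17.9 ± 3.20. The difference was 1.16 on the log2 scale (SE 0.50, adjusted p = 0.581 by limma), without overlap, as in 1.12% of promoters. It was named for having the smallest p above 0 among the pathway promoters.

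In Kdm2b-CXXC 0 pathway promoters had an unadjusted p under 0.05 by limma, and their median was 0.09, with 0.10 over all promoters. Irf5, a transcription factor of innate immunity, had the smallest p above 0, at 0.79 (SE 0.43), and Rsad2, which encodes the antiviral enzyme viperin, the smallest below 0, at -0.48 (SE 0.42). With TMM scaling 2 were lower and 2 higher at that threshold, against 4.36% and 3.42% of all promoters.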

How the data were processed

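Calibrated ATAC-seq libraries of 4 conditional mESC lines were compared, tamoxifen with untreated, within each line; 26 input genomic DNA libraries were not analysed here. The authors aligned reads with Bowtie 2 to joined mm10 and dm6 genomes, removed multimapping reads, duplicates (SAMtools), mitochondrial reads and blacklisted regions, and counted mouse reads over 400 bp intervals at 20633 promoters. The deposited values are a signal: reads divided by a DESeq2 size factor that the authors derived from Drosophila reads corrected for the mixing ratio in genomic DNA. The deposited columns of the authors' own comparison (mean, fold changes, errors, p-values) were not used.

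Whole reads were recovered from the step size of each column, and 100% of values came out whole at a tolerance of 0.01. Promoters with few reads were removed with filterByExpr of edgeR 4.0.16 on these reads. limma 3.58.1 with a mean-variance trend was fitted per line to log2(calibrated reads + 1) over all remaining promoters, two-sided, with Benjamini-Hochberg adjustment. Fold changes on this scale understate changes at promoters with few reads. The thresholds were an adjusted p under 0.05 and a fold over 1.4. The fits were tested on simulated data. Alternatives were TMM, median-of-ratios and total-read scaling, pseudocounts of 0.5 and 5, no filter, edgeR's quasi-likelihood test, DESeq2 1.42.0 (R 4.3.3), a replicate block and leaving out each library.

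The labels call the libraries biological replicates, and p-values measure the spread between libraries of 1 line. Symbols were matched to 99.1% of RefSeq identifiers, and sequences to 20630 promoters. Coordinates are 1-based. The members and lists were chosen with earlier results of these data known. The 9 genes were named in every line, the pathway promoters by both thresholds or, where none passed, as the promoter above and the promoter below 0 with the smallest p, and the promoters most like Ddx60 by correlation. Ddx60 in Kdm2b-CXXC was left out of counts and medians over the genes, and its own values there are a description. Names given for alternative fits and for neighbours of Ddx60 were chosen after their values were seen. The result of 1 named pathway promoter is not reported here.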

Additional observations from a re-analysis of the deposited data

Results flagged for a closer look

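In 18 groups of 4 libraries in Kdm2a/b-CXXC cells, 2 held a library far from the other 3, by a gap of more than 0.829 of the group's range; chance gives about 1 in 20. Irf9 in tamoxifen replicate 4 stood at 125.2 calibrated reads, with a gap of 0.83 of the range. That library also had the lowest sum of calibrated reads over all promoters in its group, 1.33 M. With TMM scaling Irf9 was at 155.5 in it, within a group range of 140.2 to 183.4. Isg15 in tamoxifen replicate 1 stood at 18.02, with a gap of 0.846, in a group of 6 to 16 reads.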

How the results depend on the processing

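Of 577 log2 fold changes of the 9 genes under an alternative, 551 kept their direction and their side of the thresholds (Ddx60 in Kdm2b-CXXC by value alone), 25 turned, and 1 newly passed. Those that turned were at most 0.26 in size as reported, with wide intervals. A value to which DESeq2 gave no adjusted p counted as not passing. In Kdm2a/b-JmjC, Dhx58 became 0.15 with TMM, median-of-ratios (0.153) and total-read scaling (0.159), 0.075 with edgeR and TMM, and 0.15 with the replicate block and TMM. Stat2 became 0.12 with TMM, 0.12 with median-of-ratios, 0.13 with total reads, 0.14 with edgeR and TMM, and 0.12 with the block and TMM. The median of the genes there became 0.0499, 0.052, 0.058, 0.033 and 0.0499 under the same settings, as the median over all promoters moved. Ddx58 in Kdm2b-CXXC was 0.025 with edgeR and 0.025 with DESeq2.

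Whether the replicate numbers pair libraries is not known. With TMM scaling, deviations of same-numbered libraries from their group means correlated between -0.0056 and 0.0724. In Kdm2a/b-JmjC each library correlated best with its own number, a hint from the data only. That check cannot see shifts of whole libraries. Summed calibrated reads had the same order by replicate number without and with tamoxifen in Kdm2a-CXXC and Kdm2b-CXXC. They did not in Kdm2a/b-JmjC or Kdm2a/b-CXXC. With the replicate block, 1 gene passed in Kdm2a-CXXC, Ddx58 (-0.91, adjusted p = 0.0469 by limma), and 2 pathway promoters, Parp14 and Trim21. That fit called 188 of 17727 promoters (1.06%), 186 of them lower. The block changed no other call of these genes.

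With 1 library left out, Kdm2a/b-JmjC had 0 to 5 pathway calls (5 without tamoxifen replicate 1), Dhx58 from -0.22 to 0.30 and Isg15 from -0.0936 to 0.56. In Kdm2a/b-CXXC, Irf7 ran from -0.59 to 0.0623, and with TMM scaling 0 to 1 genes passed, with Ddx60 from -0.93 (without untreated replicate 4) to -0.49. In Kdm2a-CXXC the median ran from -0.40 to -0.14 (without tamoxifen replicate 1), Dhx58 from -0.24 to 0.58 and Ifit1 from -0.14 to 0.36. The medians of the other lines ran from -0.22 to -0.04 (Kdm2a/b-JmjC), -0.26 to 0.06 (Kdm2a/b-CXXC) and 0.05 to 0.35 (Kdm2b-CXXC). In Kdm2b-CXXC, Ddx58 ran from -0.24 to 0.27, Irf7 from -0.63 to 0.36 and Ifit1 from -0.62 to 0.18. In the 3 lines together 0 to 2 genes passed (2 without Kdm2a/b-CXXC tamoxifen replicate 1), with Ddx60 from -0.66 to -0.49 and Ddx58 from -0.74 to -0.59. Apart from shared scaling, the cause was not tested. TMM scaling with a library left out, the fit over 3 lines and the test between lines were chosen after seeing the data. Isg15, Ifit1 and Dhx58 hold so few reads that depth limits what can be seen there.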
